A study of Rattus norvegicus with 8 samples.

Results

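The 10 genes described here are protein-coding genes of the rat mitochondrial genome: Nd1, Nd2, Nd4, Nd5 and Nd6 (subunits of complex I, NADH dehydrogenase), Cytb (complex III), Cox1, Cox2 and Cox3 (complex IV, cytochrome c oxidase) and Atp6 (complex V, the ATP synthase). They were chosen by their Ensembl identifiers, with earlier results of these data known, and all 10 were among the 32883 identifiers of the table. RNA came from the upper lumbar spinal cord of Sprague Dawley rats by the series title, or the upper spinal cord by the sample labels. The 4 injured libraries are of tissue taken 4 days after hemisection (severing 1 side of the cord) at thoracic level 9, the 4 uninjured libraries are of rats whose cord was not injured, and the comparison asks how a distant cut changes the RNA of cord that was not itself cut. Sham surgery, sex, age and the number of animals behind the libraries were not given in the sources used here, and p-values therefore reflect the spread between libraries alone, which can be technical.

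The mitochondrial genome is a small circular DNA that keeps a handful of genes for the respiratory chain, the series of protein complexes in the inner mitochondrial membrane that passes electrons to oxygen and drives ATP synthesis. Its strands are copied into long precursor RNAs that are cut at the tRNAs between the genes, and the messenger RNAs then receive a short poly(A) tail. All of the protein genes lie on the heavy-strand transcript except Nd6, which is read from the opposite strand and whose mRNA is known to lack a stable poly(A) tail in mammals. Neurons depend strongly on oxidative phosphorylation, and mitochondrial mRNAs are among the most abundant transcripts of nervous tissue.

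The libraries were made by CEL-Seq2, a protocol that primes at the poly(A) tail and labels each captured molecule with a short random tag (a unique molecular identifier, UMI), and a gene's value is its number of different tags. Tags of 6 bases, the usual length in this protocol, come in 4096 kinds, and a gene can then show at most 4096 UMIs per library however many molecules were captured. As the tag length of these libraries was not given in the sources used here, 4096 is taken from the protocol. The highest count of the table was 4047. Library totals ran from 112264 to 221177 UMIs in uninjured and from 195113 to 320199 in injured cord, a span of 2.85-fold, and the injured libraries were the deeper ones except that injured library 4 (195113) lay below uninjured library 1 (221177).

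Together the 10 genes took 10.5%, 14.2%, 14.1% and 15.3% of all UMIs in uninjured libraries 1 to 4 and 7.97%, 7.52%, 8.99% and 11.0% in injured libraries 1 to 4. The mean was 13.5% ± 2.08 (SD, n = 4) in uninjured and 8.86% ± 1.53 (SD, n = 4) in injured cord, 0.654 times as much. The groups overlapped, because injured library 4 lay just above uninjured library 1. In each of the 4 pairs of libraries with the same number in their titles, the injured library had the smaller share. The same held for 9 of the 10 genes one by one, all but Nd6, beside 8.27% of all tested genes. These shares are of deposited counts, which the number of tags bounds, and what part of the difference comes from that bound was not tested. In a bulk sample, fewer mitochondria-rich cells, fewer mitochondria per cell and less RNA per mitochondrion cannot be told apart.

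**Figure D1:**
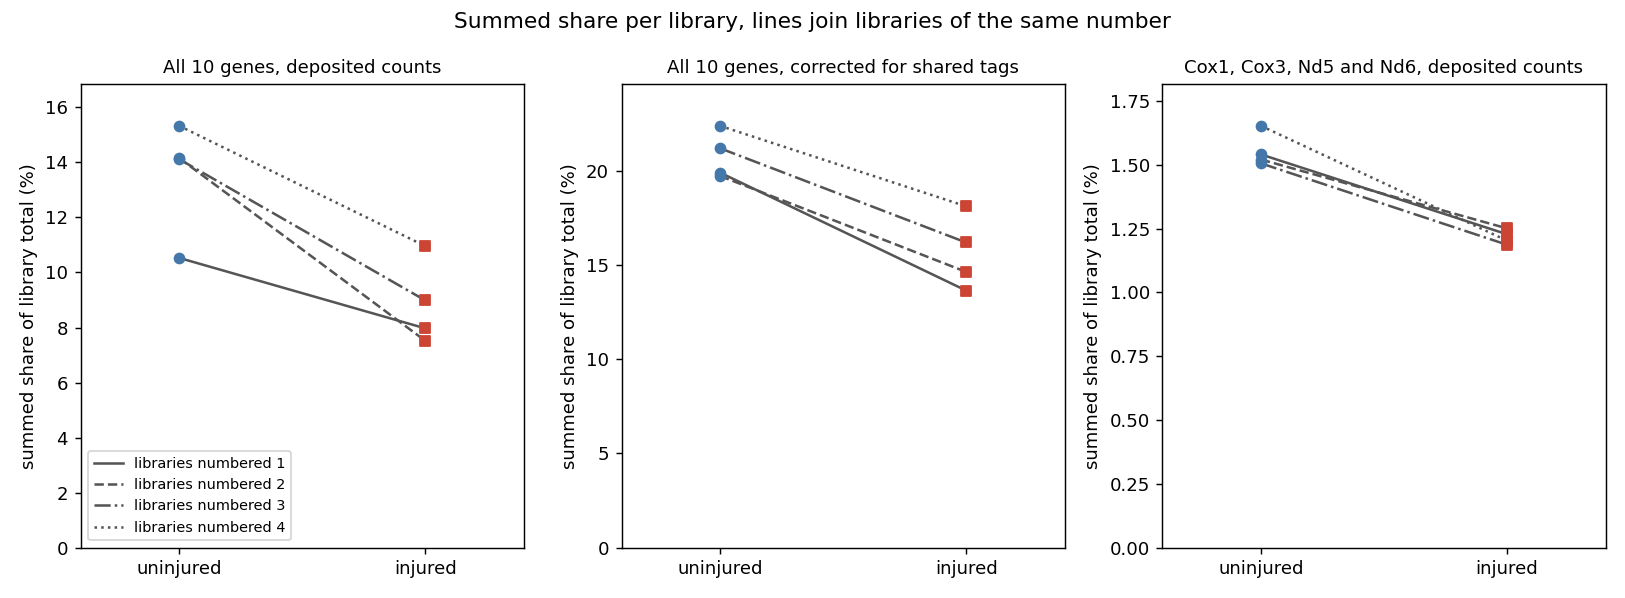
Summed share of the library total (%, vertical axes start at 0) in uninjured (blue circles) and injured (red squares) libraries, with lines joining libraries of the same number; left, all 10 genes from deposited counts; middle, all 10 after correction for shared tags; right, Cox1, Cox3, Nd5 and Nd6, the genes that never exceeded 2048 UMIs. All lines slope down from uninjured to injured, and the groups overlap in the left panel only.

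No gene of the 10 passed the test of injured against uninjured libraries (edgeR quasi-likelihood test over 3073 genes, adjusted p below 0.05), in which 2.28% of tested genes were called higher and 0.195% lower. Of the 10 genes, 6 were lower at an unadjusted p under 0.05 (background 5.86% of tested genes lower) and 0 higher. DESeq2 called 5 of them lower (background 0.151% of 12611 genes) and limma-voom 0 (background 0.26%). DESeq2 with the block described next called 7 (background 0.262%). The DESeq2 backgrounds are over all genes with a p-value, including rare ones that the edgeR filter on low counts removed. They are therefore not comparable with the edgeR backgrounds. With the replicate number of the titles as a block, a pairing read from the data and not from a label, edgeR called 8 of the 10 lower and 0 higher, where it called 4.56% of tested genes lower and 6.77% higher. The 8 were Nd1, Nd2, Nd4, Nd5, Cytb, Cox2, Cox3 and Atp6. The median log2 fold change of the 10 was -0.71 without and -0.70 with the block, beside -0.03 over all tested genes in each fit. All 10 passed the filter on low counts, so no gene of the list is missing from these counts. Leaving out uninjured library 1 gave 4 called lower without the block (background 0.317%), and leaving out injured library 4 gave 5 (background 0.381%). Leaving out any other library gave 0 (background 0% to 0.433%).

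**Figure D2:**
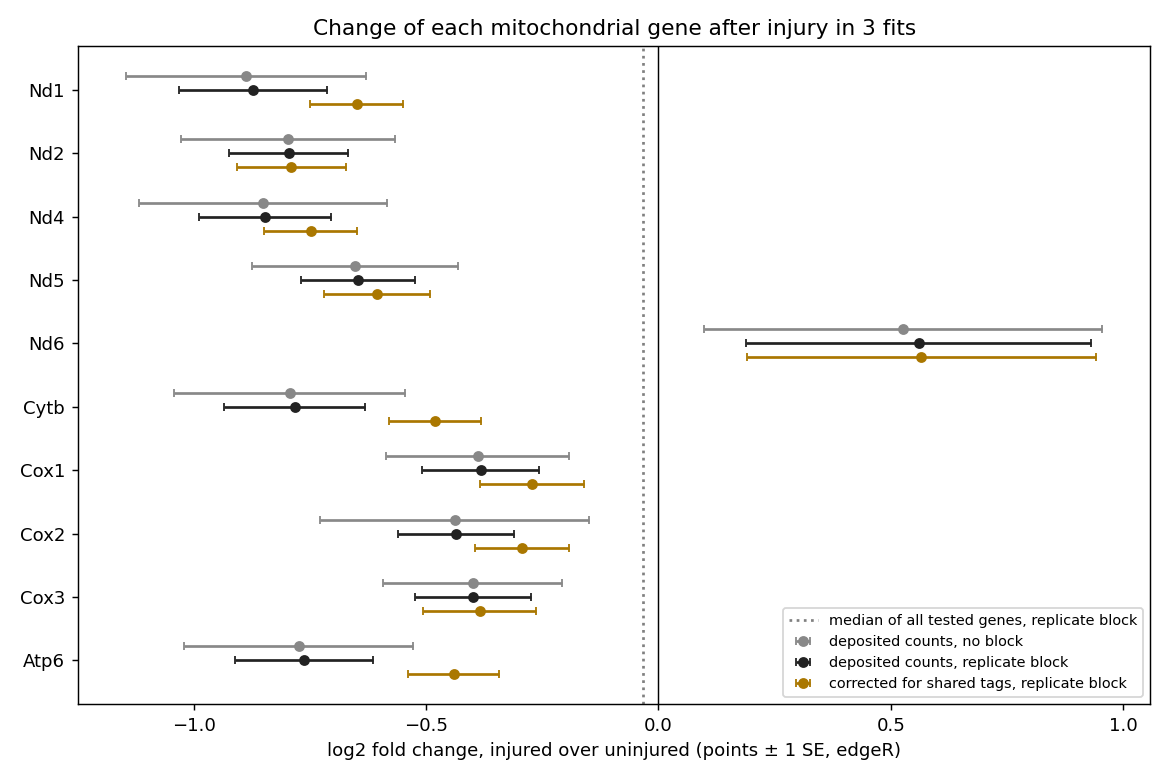
Log2 fold change of each gene, injured over uninjured, with 1 SE from edgeR, for deposited counts without a block (grey), with the replicate block (black) and after correction for shared tags with the block (ochre); the dotted line is the median of all tested genes with the block. Of the 10 genes, 9 lie below 0 in the 3 fits and Nd6 lies above 0 with the widest error. The ochre SEs leave out the error of the correction itself.

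The counts stood close to the 4096 tags in many libraries. Of the 80 values of the 10 genes, 41 were above 2048, 50% of the number of tags, and 8 were at 90% or more of it, 7 of them in injured and 1 in uninjured libraries. Nd1 (ENSRNOG00000030644), Nd4, Cytb and Atp6 exceeded 2048 in all 8 libraries, Nd2 in 7 and Cox2 in 2. Cox1 (ENSRNOG00000034234), Cox3, Nd5 and Nd6 never did. In the whole table, 13 genes exceeded 2048 in any library, of which 6 were among these 10.

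If tags are drawn at random, the number of molecules behind a count can be estimated from the share of tags already used, and this estimate was applied to every gene of the table as an alternative. It leaves a count of 39 at 39 molecules and turns the highest count of Nd1, 3978, into 14529 molecules. On this scale the 10 genes took 20.8% ± 1.24 (SD, n = 4) of all molecules in uninjured and 15.6% ± 1.95 (SD, n = 4) in injured cord, 0.752 times as much. The groups then did not overlap, with 19.9%, 19.7%, 21.2% and 22.4% in uninjured libraries 1 to 4 and 13.6%, 14.6%, 16.2% and 18.1% in injured libraries 1 to 4. One by one, 7 of the 10 genes had a lower corrected share in all 4 pairs, against 9 on deposited counts. The exceptions were Nd6, Cox1 and Cox3, and the matching share of all tested genes was not counted on this scale. With the block, edgeR called 7 of the 10 lower on corrected counts (background 4.20% lower), the same as before without Cox2, and without the block it called 0 (background 0.163%), with 4 lower at an unadjusted p under 0.05 (background 5.77%). The median log2 fold change of the 10 was then -0.46 with and without the block, and -0.27 with library totals as scaling, beside 0.14 over all tested genes in that fit. Fits on corrected counts treated the estimates as observed counts. Their SEs and p-values therefore leave out the error of the estimate itself.

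Nd1, the core complex I subunit at the quinone-binding end of the membrane arm, was the most abundant of the 10. It had 3902, 3362, 3683 and 3655 UMIs in uninjured libraries 1 to 4 and 3727, 3978, 3885 and 3746 in injured libraries 1 to 4. These counts spanned only 1.18-fold while library totals spanned 2.85-fold, and all 4 injured libraries were at 90% or more of the tags, up to 97.1%. As a share of the library total, Nd1 was at 2.55% ± 0.538 in uninjured and 1.51% ± 0.295 in injured cord (SD, n = 4), with uninjured library 1 (1.76%) inside the injured range. The log2 fold change was -0.87 with the block (SE 0.16, edgeR adjusted p = 0.000968) and -0.89 without it (SE 0.26, edgeR adjusted p = 0.0853). After correction for shared tags Nd1 was still lower with the block, by a smaller amount (log2 fold change -0.65, SE 0.10, edgeR adjusted p = 0.000202), and its corrected share did not overlap between groups, from 4.70% to 5.56% in uninjured and from 3.12% to 4.18% in injured libraries. That SE and p-value leave out the error of the molecule estimate. Without the block Nd1 did not pass on corrected counts (edgeR adjusted p = 0.299).

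Nd2 (ENSRNOG00000031033), a core subunit of the proton-pumping membrane arm of complex I, had 3537, 1703, 2185 and 2815 UMIs in uninjured and 2781, 2905, 2742 and 2530 in injured libraries 1 to 4. Its share was 1.60%, 1.52%, 1.63% and 2.07% in uninjured and 1.02%, 0.907%, 1.08% and 1.30% in injured libraries. All injured libraries lay below all uninjured ones, and the injured library held between 0.598 and 0.665 times the share of the uninjured library in each pair. On corrected counts these pair ratios spread more widely, from 0.480 to 0.772. Nd2 fell with the block by nearly the same amount on deposited counts (log2 fold change -0.80, SE 0.13, edgeR adjusted p = 0.00027) and on corrected counts (-0.79, SE 0.12, edgeR adjusted p = 0.000162). Without the block Nd2 did not pass (edgeR adjusted p = 0.083 on deposited and 0.139 on corrected counts).

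Nd4 (ENSRNOG00000029707), another membrane-arm subunit, had 3543, 2466, 3421 and 3612 UMIs in uninjured and 3121, 3497, 3678 and 3538 in injured libraries 1 to 4. The counts of the groups overlapped, and the lowest was that of uninjured library 2, the shallowest of all. The share of Nd4 was 2.25% ± 0.474 in uninjured and 1.38% ± 0.332 in injured cord (SD, n = 4), with overlap between uninjured library 1 (1.60%) and injured library 4 (1.81%). With the block it was lower on deposited counts (log2 fold change -0.85, SE 0.14, edgeR adjusted p = 0.000429) and on corrected counts (-0.75, SE 0.10, edgeR adjusted p = 5.22e-05). Nd4 did not pass without the block (edgeR adjusted p = 0.113 on deposited and 0.317 on corrected counts). The short Nd4l gene overlaps the start of Nd4, and reads of the overlap could be assigned to either or to neither, depending on how overlaps were counted.

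Nd5 (ENSRNOG00000029971), the subunit at the far end of the membrane arm, stayed well below the number of tags, at no more than 41.0% of it. It had 1343, 761, 716 and 1094 UMIs in uninjured and 1022, 1681, 1057 and 1010 in injured libraries 1 to 4. Its share was 0.607%, 0.678%, 0.532% and 0.804% in uninjured and 0.375%, 0.525%, 0.417% and 0.518% in injured libraries, without overlap, although the nearest libraries, uninjured 3 and injured 2, differed by little. After correction the groups overlapped, with injured library 2 at 0.538% above uninjured library 3 at 0.466%. Nd5 fell with the block (log2 fold change -0.65, SE 0.12, edgeR adjusted p = 0.00129) and by a similar amount after correction (-0.60, SE 0.11, edgeR adjusted p = 0.00169). Without the block Nd5 did not pass (edgeR adjusted p = 0.155 on deposited and 0.246 on corrected counts). On deposited counts, Nd2 and Nd5 were the only genes of the 10 whose shares did not overlap between groups, as was the case for 1.46% of tested genes in this direction.

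Nd6 (ENSRNOG00000029042), the complex I subunit encoded on the other strand, was rare, with 23, 4, 2 and 12 UMIs in uninjured and 25, 20, 39 and 19 in injured libraries 1 to 4. It ranked 1867 by mean count in the table, where Nd1 ranked 2. Its share ran from 0.00149% (95% Wilson interval 0.000408% to 0.00542%) in uninjured library 3 to 0.0154% (0.0112% to 0.0210%) in injured library 3, and the groups overlapped. These intervals cover counting error only. Nd6 was the only gene of the 10 with a higher mean share in injured cord (0.0101% ± 0.00382 against 0.00607% ± 0.00423, SD, n = 4), but it did not pass in any fit (log2 fold change 0.53, SE 0.43, edgeR adjusted p = 0.644 without the block, and 0.56, SE 0.37, edgeR adjusted p = 0.38 with it). Without the libraries numbered 3, its blocked log2 fold change was 0.03. The difference between Nd6 and the other genes was not tested. Strand use in counting is not stated, so reads of Nd6 and of heavy-strand RNA across the same place cannot be told apart.

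Taken by complex, the 5 Nd genes had a summed share of 7.16% ± 1.12 in uninjured and 4.43% ± 0.811 in injured cord (SD, n = 4). The injured libraries, at 3.77% to 5.56%, lay below the uninjured libraries, at 5.58% to 8.23%, by a narrow gap. After correction the sums were 11.8% ± 1.03 and 8.12% ± 1.27 (SD, n = 4) and the gap was wider, with injured libraries up to 9.68% and uninjured libraries from 10.55%.

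Cytb (ENSRNOG00000031766), the only subunit of complex III that mitochondrial DNA encodes, had 3675, 2968, 3114 and 3361 UMIs in uninjured and 3586, 3875, 3666 and 3512 in injured libraries 1 to 4. Its counts spanned 1.31-fold and reached 94.6% of the tags in injured library 2. The share was 2.27% ± 0.429 in uninjured and 1.44% ± 0.257 in injured cord (SD, n = 4), with uninjured library 1 (1.66%) below injured library 4 (1.80%). The log2 fold change with the block was -0.78 (SE 0.15, edgeR adjusted p = 0.00162) on deposited and -0.48 (SE 0.10, edgeR adjusted p = 0.00333) on corrected counts, so that the change was smaller after correction. Cytb did not pass without the block (edgeR adjusted p = 0.109 on deposited and 0.421 on corrected counts).

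Atp6 (ENSRNOG00000031979), the ATP synthase subunit that forms the proton path beside the rotating ring, had 3587, 2808, 3164 and 3282 UMIs in uninjured and 3500, 3856, 3709 and 3455 in injured libraries 1 to 4, and reached 94.1% of the tags. Its share was 2.22% ± 0.405 in uninjured and 1.43% ± 0.252 in injured cord (SD, n = 4). With the block the log2 fold change was -0.76 (SE 0.15, edgeR adjusted p = 0.00168) on deposited and -0.44 (SE 0.10, edgeR adjusted p = 0.00649) on corrected counts. Without it Atp6 did not pass (edgeR adjusted p = 0.12 on deposited and 0.505 on corrected counts). Atp6 overlaps the Atp8 gene, so reads of the overlap could be assigned to either or to neither, depending on how overlaps were counted. The corrected shares of Nd1, Nd2, Cytb and Atp6 did not overlap between groups, as for 1.14% of tested genes in this direction, with 2.70% to 3.31% in injured and 3.46% to 4.02% in uninjured libraries for Cytb, and 2.50% to 3.15% against 3.21% to 3.61% for Atp6.

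The 3 core subunits of complex IV together had a summed share of 1.88% ± 0.283 in uninjured and 1.55% ± 0.211 in injured cord (SD, n = 4), with overlap between the groups. After correction the sums were 1.80% ± 0.218 and 1.66% ± 0.238 (SD, n = 4), again with overlap. Cox1, the subunit that carries the site where oxygen is reduced, had 1584, 717, 1066 and 949 UMIs in uninjured and 1811, 1826, 1566 and 1053 in injured libraries 1 to 4. Its share was 0.711% ± 0.0635 in uninjured and 0.598% ± 0.0543 in injured cord (SD, n = 4), and the groups overlapped. Cox1 did not pass with the block, by a small margin (log2 fold change -0.38, SE 0.13, edgeR adjusted p = 0.0543), nor after correction (-0.27, SE 0.11, edgeR adjusted p = 0.138).

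Cox2 (ENSRNOG00000030371), the subunit that takes up electrons from cytochrome c, had 1631, 888, 1401 and 1869 UMIs in uninjured and 1682, 1961, 2104 and 2246 in injured libraries 1 to 4. Its share was 0.737%, 0.791%, 1.04% and 1.37% in uninjured and 0.616%, 0.612%, 0.829% and 1.15% in injured libraries, so that library 4 was the highest in each group. Cox2 passed with the block (log2 fold change -0.43, SE 0.12, edgeR adjusted p = 0.0266) but not after correction (-0.29, SE 0.10, edgeR adjusted p = 0.0721), and not without the block (edgeR adjusted p = 0.557). The block fits without the libraries numbered 1, 3 or 4 did not call it (edgeR adjusted p up to 0.173).

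Cox3 (ENSRNOG00000030700), a core subunit without a redox centre, was the least abundant heavy-strand gene of the 10, at no more than 12.1% of the tags. It had 459, 225, 242 and 193 UMIs in uninjured and 494, 478, 349 and 266 in injured libraries 1 to 4, and its share was 0.208%, 0.200%, 0.180% and 0.142% against 0.181%, 0.149%, 0.138% and 0.136%. The groups overlapped, but in each pair the injured library was lower. After correction the injured library was lower in 3 of the 4 pairs. Cox3 was called lower with the block (log2 fold change -0.40, SE 0.13, edgeR adjusted p = 0.0434) and after correction (-0.38, SE 0.12, edgeR adjusted p = 0.048), close to the threshold in each fit. Fits without the block did not call it (edgeR adjusted p = 0.359 on deposited and 0.395 on corrected counts). The block fits without the libraries numbered 1, 2 or 3 did not call Cox3 (edgeR adjusted p up to 0.236).

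**Figure D3:**
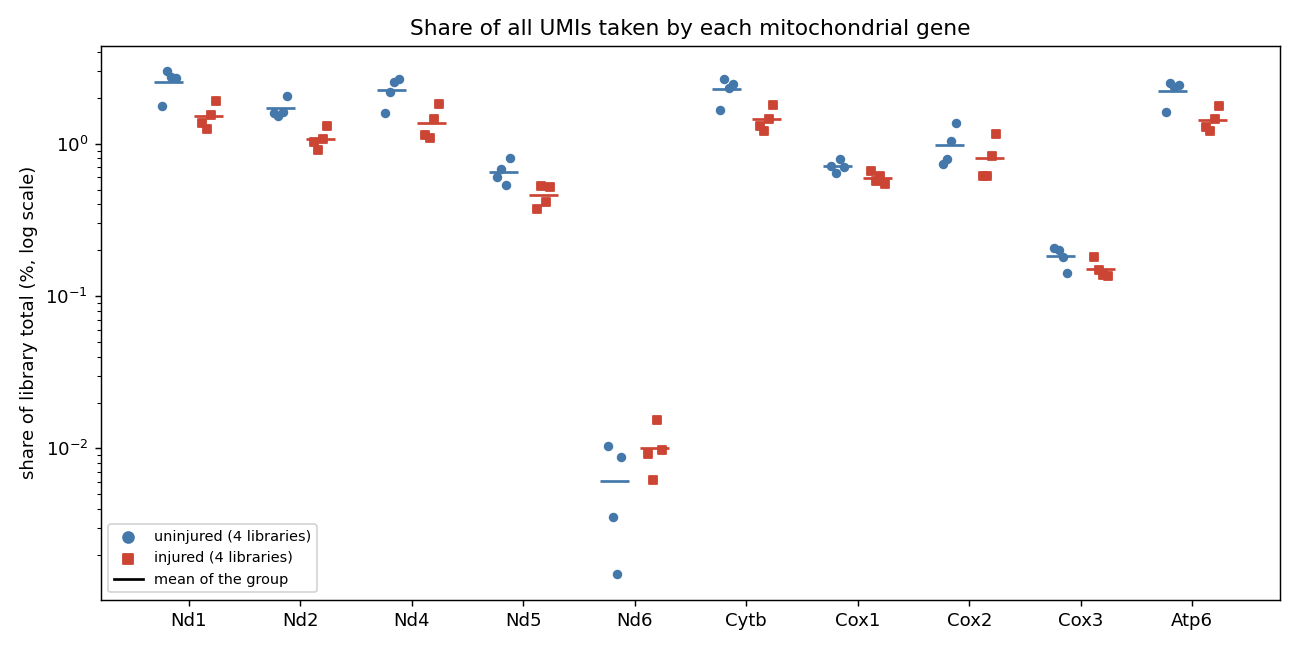
Share of the library total taken by each gene (%, log axis) in 4 uninjured (blue circles) and 4 injured (red squares) libraries, with a bar at the mean of each group. Mean shares are lower in injured cord for 9 of the 10 genes, and the points of Nd2 and Nd5 do not overlap between groups.

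Depth was not balanced between the groups, and the counts of these genes varied unequally over the libraries. Cox1, Cox2, Cox3 and Nd5 had count spans of 2.35-fold to 2.56-fold over the 8 libraries, near the 2.85-fold span of the totals. A near span does not mean that counts followed depth, as Cox2 was highest (2246) in injured library 4, the shallowest injured one. Nd2 spanned 2.08-fold and the rare Nd6 19.5-fold. Nd1, Cytb, Atp6 and Nd4 spanned 1.18-fold to 1.49-fold. Nd1, Cytb and Atp6 had more UMIs after injury in 3 of 4 pairs and Nd4 in 2, while their share of the total was lower in all 4 pairs. Which part of their lower share comes from the number of tags and which from fewer molecules was not tested. The correction for shared tags reduced the size of the log2 fold change with the block from 0.76 to 0.44 for Atp6 and from 0.78 to 0.48 for Cytb. It moved that of Nd2 from 0.80 to 0.79, of Nd5 from 0.65 to 0.60 and of Cox3 from 0.40 to 0.38.

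**Figure D4:**
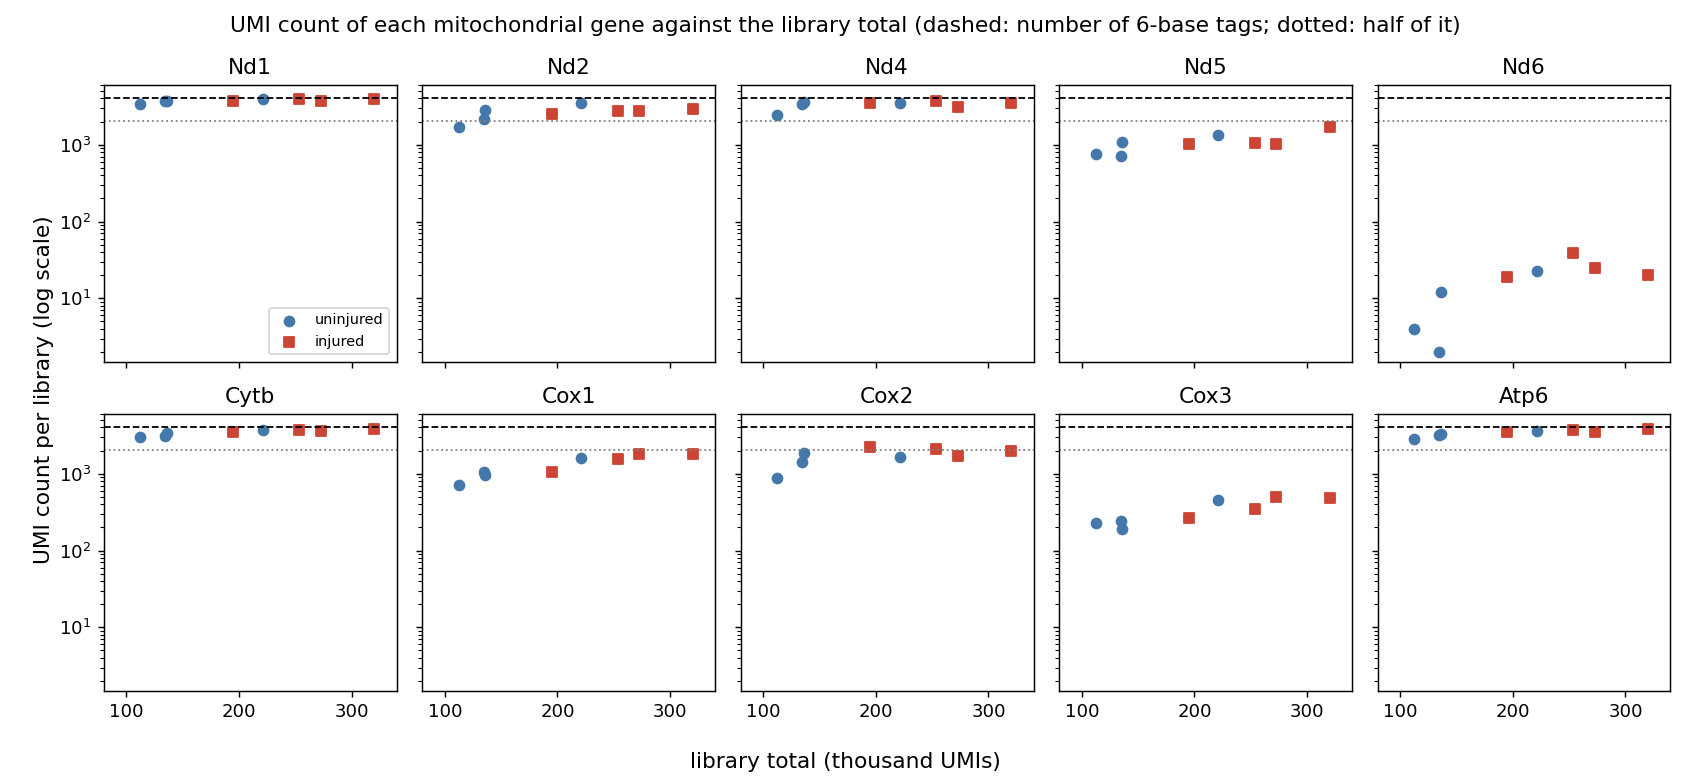
UMI count of each gene (log axis) against the library total, for uninjured (blue circles) and injured (red squares) libraries; the dashed line marks 4096, the number of 6-base tags, and the dotted line 2048. Nd1, Nd4, Cytb and Atp6 lie between the dotted and the dashed line in all 8 libraries, at 60.2% to 97.1% of the tags, while Cox1, Cox3, Nd5 and Nd6 stay under the dotted line.

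For genes far below the number of tags, the main bound was a highest count of 1024 UMIs, and 2048 was an alternative. The 4 genes that never exceeded 2048 UMIs, Cox1, Cox3, Nd5 and Nd6, together took 1.54%, 1.52%, 1.51% and 1.65% of the total in uninjured libraries and 1.23%, 1.25%, 1.19% and 1.20% in injured libraries. The means were 1.56% ± 0.0667 and 1.22% ± 0.0280 (SD, n = 4), and the groups did not overlap. After correction they were 1.43% ± 0.0916 and 1.20% ± 0.0978 (SD, n = 4), still without overlap. The gap was then narrow, with injured libraries up to 1.303% and uninjured libraries from 1.345%. The other 6 genes took 11.98% ± 2.06 and 7.64% ± 1.55 (SD, n = 4) of the total before and 19.4% ± 1.30 and 14.4% ± 2.04 (SD, n = 4) after correction. Under the main bound of 1024 UMIs only Cox3 and Nd6 remained, at 0.188% ± 0.0293 in uninjured and 0.161% ± 0.0198 in injured cord (SD, n = 4), with overlap.

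Injured library 4 and uninjured library 1 had the nearest totals of the 2 groups, and there the uninjured library was the deeper one. In that single comparison, which has no replicate and was chosen for its depth after the data were seen, the summed share of the 10 genes was 11.0% in the injured and 10.5% in the uninjured library. It sets libraries of different numbers against each other, and number 4 had the highest summed share in each group. Nd1, Nd4, Cytb, Cox2 and Atp6 had the higher share in the injured library, and Nd2, Nd5, Nd6, Cox1 and Cox3 in the uninjured one. Nd1 was at 1.92% against 1.76%, while Cox1 was at 0.540% against 0.716% and Nd5 at 0.518% against 0.607%. These shares are of deposited counts. After correction for shared tags the summed share was 18.1% in the injured and 19.9% in the uninjured library. Only Nd4 and Cox2 then had the higher share in the injured one, and Nd1 was at 4.18% against 4.70%.

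Outside the 10 genes, the tested genes whose log2 CPM (counts scaled to a common library total, log scale) over the 8 libraries correlated best with the mean of the 10 were ENSRNOG00000008010 (r = 0.962) and ENSRNOG00000030478 (r = 0.952), given as a description over libraries that share their scaling. The first is rare, with 6 to 18 UMIs per library, and the second abundant, with 1232 to 2239. As both were picked for tracking the 10 genes, no test of them is given. Neither identifier comes with a gene name in the files.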

How the data were processed

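The authors deposited raw UMI counts per Ensembl gene for 8 CEL-Seq2 libraries (4 injured, 4 uninjured). Build Rnor_6.0, HTSeq 0.6.0 and HISAT2 2.0.4 are named per the submitters' processing notes. Tag length, collapsing of UMIs, annotation release, strand and treatment of reads shared with nuclear copies were not given in the sources used here. Title codes tied each column to its sample (0 unmatched). Of the 32883 identifiers, 0 matched the RefSeq gene table of GRCr8, so the 13 lists of nuclear respiratory chain genes and cell type markers, and thereby the check of the tissue by its markers, were not analysed here. Names of the 10 genes come from the list that defines them, and coordinates and sequences were not used here. The genes and lists were chosen with earlier results of these data known.

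Counts were tested in R 4.3.3 with edgeR 4.0.16 (filterByExpr at a minimum count of 10 and total of 15, TMM, glmQLFit with its newer estimator, glmQLFTest, Benjamini-Hochberg over all tested genes). DESeq2 1.42.0 (without filterByExpr) and limma 3.58.1 were alternatives. SE is the log2 fold change over the square root of F, and shares use the total of all genes. Shares of the 9 genes other than Nd6 had 95% Wilson half-widths of 3.09% to 14.1% of their value, counting error only. Molecules were estimated as 4096 times the negative natural log of the share of tags not used, for 4096 tags. Same-numbered libraries were taken as pairs because their deviations from the group means correlated at 0.389, 0.297, 0.342 and 0.423 over tested genes, each over 0.1. The highest correlation with another number was 0.241. No label gives the pairing, and it was read from the same genes that the block was used to test, the 10 included. P-values with the block therefore depend on a choice made on these data. The fits and the molecule estimate were tested on simulated data. All 10 genes were named.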

Additional observations from a re-analysis of the deposited data

Results flagged for a closer look

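Of 22 sets of 4 values examined (the shares of the 10 genes and their sum in each group), 1 had a library far from the rest of its group. Chance alone would give about 1 in 20, but the sets come from the same 8 libraries and are not independent. It was Atp6 in uninjured library 1, at 1.62% of the library total against 2.35% to 2.50% in the other uninjured libraries. That library was also the deepest uninjured one, with 221177 UMIs. After correction for shared tags Atp6 was there at 3.21% against 3.58% to 3.61%. On deposited counts, uninjured library 1 also had the lowest uninjured share of Nd1 (1.76% against 2.688% to 2.995%), Nd4, Cytb, Cox2 and the sum (10.5% against 14.1% to 15.3%). It did not have the lowest share of Nd2, Nd5, Nd6, Cox1 or Cox3.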

How the results depend on the processing

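The 9 genes other than Nd6 had log2 fold changes below 0 in all 234 values over 26 alternatives, and Nd6 stayed above 0 in the same 26. These values are not independent, as every alternative refits libraries of the same 8. Those at adjusted p below 0.10 and below 0.01 repeat the log2 fold changes of the edgeR fit without the block. The number of the 10 genes called lower, 0 without the block (0.195%), is given with the share of all tested genes called lower. It was 8 with the replicate block (4.56%), 2 without a filter on low counts (Nd1 and Nd4; 0.103%), 5 with DESeq2 (0.151%), 7 with DESeq2 and the replicate block (0.262%), 7 with corrected counts and the replicate block (4.20%), and 2 at adjusted p below 0.10 (Nd1 and Nd2; 0.976%). The shares without the filter and with DESeq2 include rare genes that the filter removes elsewhere, and are not comparable with the others. The number was 0 with library totals as scaling (0.0651%), TMM without the 10 genes (0.195%), limma-voom (0.26%) and corrected counts with TMM (0.163%) or library totals (0.0326%). Equal depth (medians of 9 random draws, 0.18%) and adjusted p below 0.01 (0%) also gave 0. The older edgeR estimator, added after seeing the data, gave 0 as well (0.13%), with 6 at an unadjusted p under 0.05 in the edgeR fit without the block. Leaving out 1 library gave 0 to 5 without the block. It gave 4 without uninjured 1 (0.317%), 5 without injured 4 (0.381%) and 0 without any other library (0% to 0.433%). Leaving out a pair gave 6 to 8 with the block (1.85% to 5.78%). No alternative called a gene higher. Scaling by library totals moved the median over all genes from -0.03 to 0.12 (log2) and that of the 10 from -0.71 to -0.55. The log2 ratio of mean summed shares, -0.61, ran from -0.73 to -0.54 without 1 library and was -0.41 on corrected counts. It was 0.06 between injured 4 and uninjured 1 alone on deposited counts. The corrected summed shares of these libraries were 18.1% in injured 4 and 19.9% in uninjured 1. The cause was not tested. For Cox3 and Nd6 together the log2 ratio of mean summed shares was -0.23, and -0.32 to -0.15 without 1 library.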

Other observations

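The make-up of the mitochondrial counts was described as each gene's percentage of the sum of the 10. Cytb made up 16.3% ± 0.216 of that sum in injured and 16.7% ± 1.31 in uninjured libraries, and Atp6 16.1% ± 0.109 and 16.4% ± 1.01 (SD, n = 4). Cox1 made up 6.93% ± 1.46 and 5.37% ± 1.08, and Cox2 8.90% ± 1.24 and 7.23% ± 1.39 (SD, n = 4). On corrected counts Cox1 was at 4.07% ± 1.14 and 3.22% ± 0.507 and Atp6 at 18.6% ± 0.983 and 16.8% ± 1.05 (SD, n = 4). The groups overlapped for every gene on either scale.

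Cox2 relative to Cox1 differed by library number more than by group. The ratio of their counts was 1.03, 1.24, 1.31 and 1.97 in uninjured libraries 1 to 4 and 0.929, 1.07, 1.34 and 2.13 in injured libraries 1 to 4, so that libraries of the same number resembled each other. The ratio of Cox1 to Cox3 counts had means of 3.98 ± 0.357 in injured and 3.99 ± 0.810 in uninjured cord (SD, n = 4). The meaning of the numbers was not given in the sources used here.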
